A study of Mus musculus with 155 samples.

Results

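Immediate early genes are transcribed within minutes of a stimulus from factors that a cell already holds, and 9 such genes were followed together with Ptgs2, which encodes the inducible cyclooxygenase of prostaglandin synthesis. The 10 genes were Ptgs2, Ier3, Ier2, Fos, Fosb, Junb, Egr1, Dusp1, Dusp6 and Maff, out of 55471 genes in each deposited count table, and each was found in every table by its Ensembl identifier. They were selected on ESC levels with results of these data known, since Ptgs2 was lower in both mutant ESC lines and Ier3 was higher in H3.3K27M ESCs. The ESC levels of those lines against WT-H3.3 are therefore given below as a description, without a test.

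Growth factors, stress and depolarization reach these genes mainly through ERK and p38 MAP kinases, serum response factor with its ternary complex partners, and CREB. Fos, Fosb and Junb encode subunits of the AP-1 transcription factor, Egr1 encodes a zinc finger transcription factor, and Maff encodes a small MAF protein that lacks a transactivation domain. Dusp1 and Dusp6 encode phosphatases that switch MAP kinases off, with Dusp6 acting on ERK in the cytoplasm. The level of Dusp6 RNA is widely read as a record of ERK activity. Ier2 and Ier3 encode small proteins of the early growth and stress response.

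The study asked how histone H3.3 with a mutated lysine acts in cells that differentiate. KH2 FLIP-in mouse ESCs carried a single extra copy of SNAP-HA-tagged H3.3 under a doxycycline (Dox) inducible promoter, either as WT-H3.3, as H3.3K27M, which inhibits the PRC2 complex globally, or as H3.3K27L, which lacks the lysine without that global effect. All groups therefore carried a tagged transgene and received Dox, and each line came from selected colonies. In ESCs, 32 libraries covered 4 groups, which were the H3.3K27M line, the H3.3K27L line and the WT-H3.3 line without or with GSK343 (a small molecule inhibitor of PRC2), at 4, 8, 24 and 72 h of Dox with 2 replicates each. The ESC medium held serum, LIF and the 2i inhibitors of MEK and GSK3. RA-treated cells (6 libraries) had 1 library of each of the 3 lines at 24 and at 72 h of Dox, after days in retinoic acid (RA) without LIF or 2i. OPC cultures (4 libraries) were oligodendrocyte progenitor differentiations of WT-H3.3 and H3.3K27M cells, again with 1 library at each of 24 and 72 h of Dox. Nothing in the labels shows that replicates came from separate cultures, although the methods place them weeks apart, so p-values measure the spread between these libraries.

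Total counts ran from 68378 to 21161392 in ESCs, from 2239137 to 22269533 in RA-treated cells and from 7499258 to 12387113 in OPC cultures. The H3.3K27L ESC library of replicate 2 at 72 h held the 68378 counts and gave 0 counts for 7 of the 10 genes, so it is left out of the level ranges below and is kept in the fits. The libraries also differed in the measures given here, and no label names the kit of a library. The Spearman coefficient between level and exonic length, over 10709 genes, lay between -0.0498 and 0.166 in the other ESC libraries, between 0.228 and 0.292 in the 3 RA libraries at 24 h, between 0.0144 and 0.0306 in the 3 RA libraries at 72 h and between 0.0401 and 0.049 in OPC cultures. Akr1b3, an aldose reductase gene that can make prostaglandins, was chosen after its values were seen. It lay between 130 and 245 counts per 1000000 counts (CPM) in those ESC libraries and between 59.5 and 66.3 CPM in RA libraries at 24 h, but between 2.27 and 5.17 CPM in RA libraries at 72 h and between 0.68 and 2.35 CPM in OPC cultures. The coefficients of RA libraries at 72 h and of OPC cultures lay inside the ESC range, while their Akr1b3 levels lay below that of ESCs. These measures thus did not group the libraries alike. The methods name a QuantSeq kit, which reads transcript ends, and a KAPA kit, without saying which library used which. Comparisons between cell states, and between 24 and 72 h of RA-treated cells, cannot be told apart from these differences between libraries. The coefficients of the WT-H3.3 and H3.3K27M OPC libraries, in contrast, lay close together. In ESCs the coefficients at 72 h lay above most of those at 4 h.

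Promoter sequences of 8 of the 10 genes were taken from RefSeq (GRCm38.p6), and no promoter of Ier2 or Egr1 was searched. The sequences of the AP-1 genes, Dusp1 and Maff are shown because they share a motif, with Ptgs2 and Ier3 beside them because both led to the selection. Each run holds the 150 bases before a transcription start, 5′ to 3′, with the CREB half-site TGACG (or CGTCA, its reverse complement) and the full site TGACGTCA, which contains it, in capitals.
Fos: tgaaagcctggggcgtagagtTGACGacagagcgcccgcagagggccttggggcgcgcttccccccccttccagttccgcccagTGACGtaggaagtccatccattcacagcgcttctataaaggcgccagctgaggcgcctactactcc
Fosb: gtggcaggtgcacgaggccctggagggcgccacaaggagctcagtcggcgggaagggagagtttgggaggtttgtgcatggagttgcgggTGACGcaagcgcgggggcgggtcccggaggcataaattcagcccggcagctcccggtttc
Junb: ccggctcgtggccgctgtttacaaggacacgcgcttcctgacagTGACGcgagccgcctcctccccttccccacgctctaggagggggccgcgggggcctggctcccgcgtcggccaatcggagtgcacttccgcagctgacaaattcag
Dusp1: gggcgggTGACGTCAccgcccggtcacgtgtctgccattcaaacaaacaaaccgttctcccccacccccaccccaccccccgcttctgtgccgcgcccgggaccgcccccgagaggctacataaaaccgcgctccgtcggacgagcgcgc
Maff: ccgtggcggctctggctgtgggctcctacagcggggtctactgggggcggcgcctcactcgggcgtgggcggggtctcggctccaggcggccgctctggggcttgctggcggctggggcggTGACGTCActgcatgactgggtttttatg
Ptgs2: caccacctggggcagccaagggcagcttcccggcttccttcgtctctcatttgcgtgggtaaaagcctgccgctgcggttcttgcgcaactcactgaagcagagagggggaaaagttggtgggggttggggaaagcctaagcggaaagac
Ier3: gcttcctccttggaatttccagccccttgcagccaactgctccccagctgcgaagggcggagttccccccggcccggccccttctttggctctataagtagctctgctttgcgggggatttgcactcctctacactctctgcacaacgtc

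These runs lie, in GRCm38.p6, at chr12:85473740-85473889 (plus strand) for Fos, chr7:19310046-19310195 (minus strand) for Fosb, chr8:84978749-84978898 (minus strand) for Junb and chr17:26508473-26508622 (minus strand) for Dusp1. That of Maff, the second of 3 RefSeq starts, lies at chr15:79347370-79347519 (plus strand), that of Ptgs2 at chr1:150099881-150100030 (plus strand) and that of Ier3 at chr17:35821563-35821712 (plus strand). Searching both strands of the 250 bases before each start, the half-site was found in 5 of the 8 genes (Fos, Fosb, Junb, Dusp1 and Maff), and in 17.765% of the 32851 promoters in the reference. The full TGACGTCA was found in Dusp1 and Maff and in 1.546% of promoters. The GC box GGGCGG was found in 6 of the 8 genes, Junb and Dusp6 being the others, and in 32.742% of promoters. TATAAA was found in Fos alone among the 8 and in 12.368% of promoters. Neither the CArG box of serum response factor (1.467% of promoters) nor the AP-1 motif TGANTCA (6.749%) was found in these windows of the 8 genes. This says nothing about sites outside them or about Ier2 and Egr1.

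In the NCBIM37 (mm9) annotation, the build of the deposited counts, Ptgs2 lies at chr1:151947254-151955140, Ier3 at chr17:35958629-35959868, Fos at chr12:86814840-86818223 and Fosb at chr7:19888070-19895394. Egr1 lies at chr18:35020861-35024638, Dusp1 at chr17:26642535-26645464, Dusp6 at chr10:98725865-98730122 and Maff at chr15:79177971-79189502. Ier2 (chr8:87185230-87186751) and Junb (chr8:87500811-87502617) are on chromosome 8, which the study leaves out because it may be duplicated in all clones. The other 8 genes were tested without chromosome 8, and values of Ier2 and Junb come from a fit that kept it.

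Ptgs2 was low in all ESCs. In WT-H3.3 ESCs it ran from 0.979 to 4.54 CPM with a median of 2.16 CPM (8 libraries, 11 to 70 counts). In H3.3K27M ESCs it ran from 0.223 to 1.40 CPM with a median of 0.877 CPM (8 libraries, 2 to 12 counts), and in H3.3K27L ESCs from 0.491 to 1.34 CPM (7 libraries, 5 to 27 counts). At 4, 24 and 72 h every mutant library with depth was below every WT-H3.3 library, while at 8 h the lines overlapped (0.979 and 2.01 CPM in WT-H3.3 against 1.34 and 0.491 CPM in H3.3K27L). The log2 fold change against WT-H3.3, averaged over the 4 times, was -1.62 ± 0.25 (SE) in H3.3K27M and -1.23 ± 0.25 in H3.3K27L. Both contrasts were used to select the genes. The second moved to -2.84 without H3.3K27L replicate 1 at 72 h, which left the library of 68378 counts alone at that time. GSK343-treated cells, by contrast, spanned 1.55 to 6.53 CPM.

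Ier3 was higher on average in H3.3K27M ESCs, by which it was selected. It ran from 3.97 to 8.81 CPM in WT-H3.3 ESCs (median 7.45 CPM) and from 3.71 to 32.3 CPM in H3.3K27M ESCs (median 11.6 CPM), with a log2 fold change of 0.97 ± 0.30 (SE). The highest libraries in H3.3K27M ESCs were replicate 2 at 8 h (32.3 CPM) and replicate 2 at 24 h (21.3 CPM), while the other 6 lay between 3.71 and 13.99 CPM. Without single libraries the fold change ran from 0.70, without the first of these, to 1.13. The same 2 libraries held the lowest Dusp6 of all ESC libraries above 68378 counts, 3.38 CPM at 8 h and 3.93 CPM at 24 h, against 20.5 and 9.28 CPM in their replicates. Their coefficients of level with exonic length were 0.14 and 0.148, against 0.00506 and 0.0635 in those replicates, and the part of this in Ier3 and Dusp6 was not tested. In H3.3K27L ESCs, Ier3 ran from 2.10 to 12.3 CPM and its log2 fold change was -0.05 ± 0.32, or -2.47 without H3.3K27L replicate 1 at 72 h.

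For the other members, the H3.3K27M and WT-H3.3 libraries overlapped in ESCs. The log2 fold changes in H3.3K27M were -0.94 ± 0.47 (SE) for Fosb, -0.73 ± 0.52 for Egr1, -0.69 ± 0.24 for Dusp6, -0.29 ± 0.46 for Fos, 0.26 ± 0.14 for Maff and -0.02 ± 0.12 for Dusp1. With chromosome 8 kept, Ier2 was at -0.26 ± 0.17 and Junb at 0.13 ± 0.19. In H3.3K27L ESCs, Fos was at -0.63 ± 0.51 and Egr1 at -0.60 ± 0.56, and the members other than these and Ptgs2 lay between -0.23 and 0.21. Dusp1 was the steadiest member, at 40.2 to 77.4 CPM across the 31 libraries, whereas Egr1 ranged from 0.881 to 34.9 CPM and Fos from 0.667 to 30.0 CPM.

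**Figure D1:**
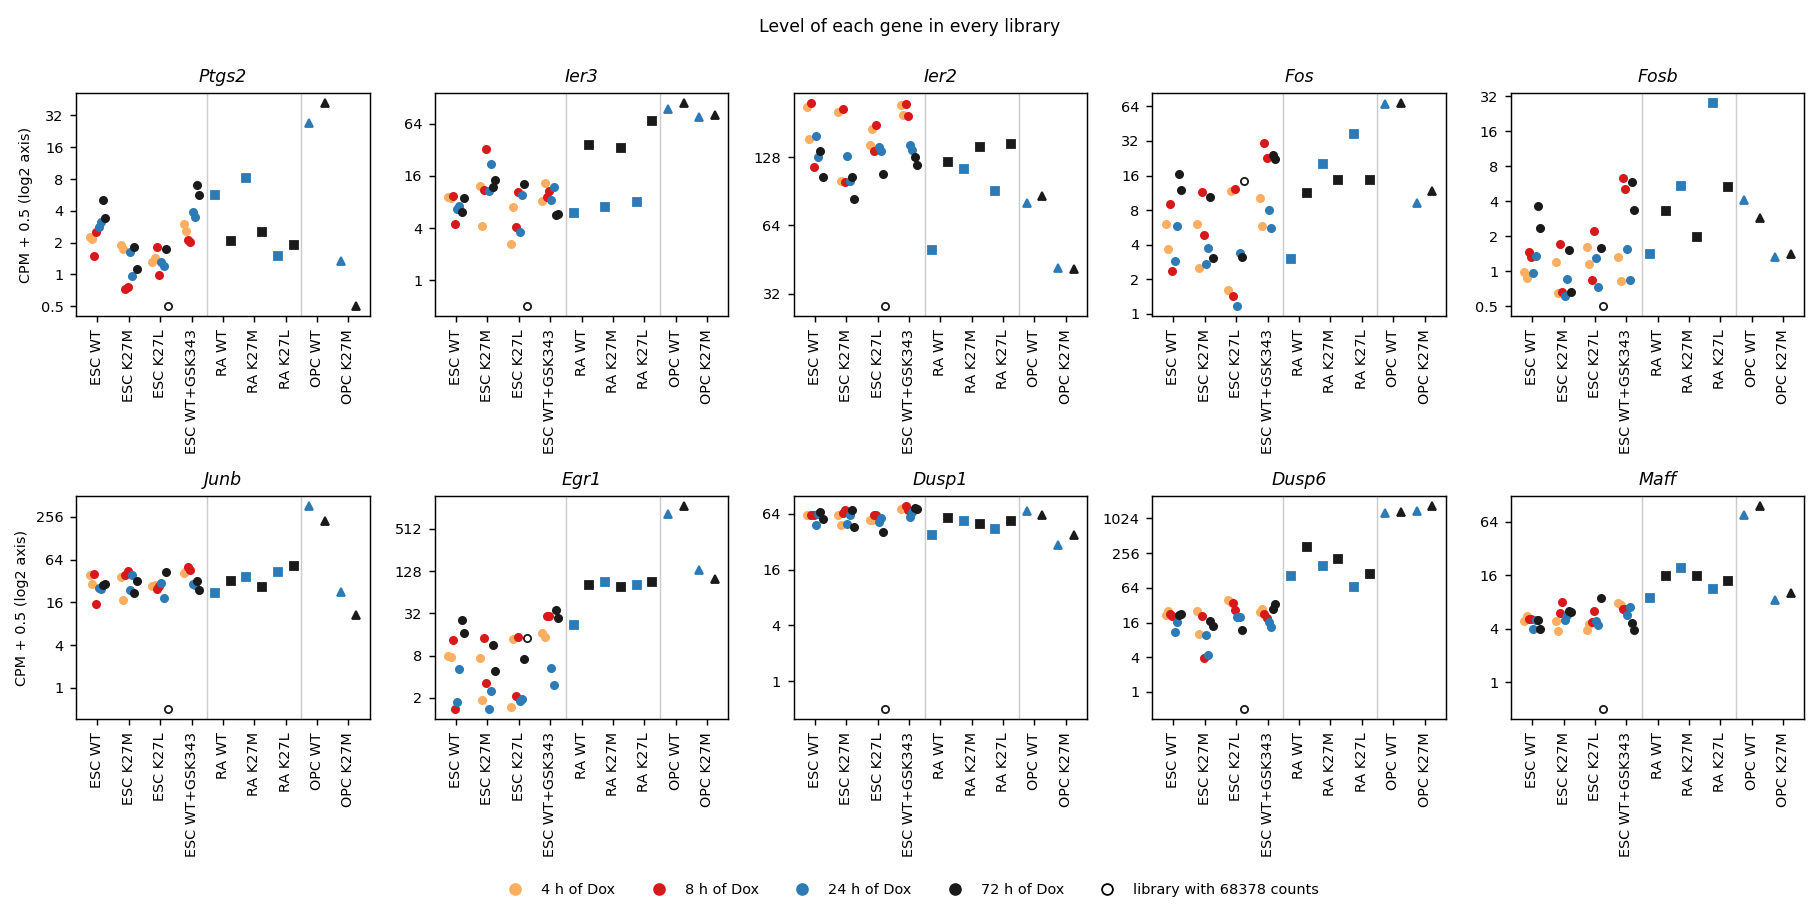
Level of each gene in every library, as CPM plus 0.5 on a log2 axis, by cell state and line; each point is 1 library, circles are ESCs, squares RA-treated cells and triangles OPC cultures, colours give hours of Dox and the open circle is the library with 68378 counts. Dusp6 and Egr1 sit above their ESC levels in OPC cultures, and Ptgs2 of the H3.3K27M OPC cultures sits at 0.838 and 0.000 CPM against 26.7 and 41.5 CPM in WT-H3.3.

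Fos and Egr1 moved together among ESC libraries. Their Spearman coefficient was 0.93 over the 31 libraries and 0.931 after the mean of each group and time was removed, which is a description of libraries that share lines, days and depth. Fos and Fosb gave 0.70, Ier3 and Maff 0.685, and Ptgs2 and Ier3 -0.36. Replicates differed widely at early times. In H3.3K27L ESCs at 4 h, Fos was 1.13 CPM in replicate 1 and 11.3 CPM in replicate 2, and Egr1 was 0.970 and 13.4 CPM. In WT-H3.3 ESCs at 8 h, Fos was 8.55 CPM in replicate 1 and 1.89 CPM in replicate 2. In both cases the replicate with less Fos had the higher coefficient of level with exonic length (0.152 against 0.0553, and 0.161 against -0.0219), and the part of this difference between libraries in the levels of Fos and Egr1 was not tested.

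The genes most like each of 4 members over the same 31 libraries, among 9436 genes whose mean was 5 CPM or more, were found by the Spearman coefficient of log2(CPM + 0.5). For Ier3 they were Ddit4 (0.844), an inhibitor of mTORC1 that stress induces, Bhlhe40 (0.805), a circadian and hypoxia-responsive repressor, and Eci2 (0.749). For Fos they were Cox10 (0.804), 1500012F01Rik (0.777) and Dnalc4 (0.758), and for Egr1 Tmem57 (0.813), 1500012F01Rik (0.782) and Letm1 (0.768). For Ptgs2 they were Nefm (0.841), a neurofilament gene, Car2 (0.817), a carbonic anhydrase, and Bmi1 (0.806), a PRC1 subunit. After group means were removed, the coefficients of Ddit4 and Bhlhe40 with Ier3 were 0.885 and 0.785, whereas those of Nefm, Car2 and Bmi1 with Ptgs2 were 0.342, 0.321 and 0.507. One gene in 100 reached 0.576 to 0.593 with these members.

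Treatment with GSK343 asks whether inhibition of PRC2 alone moves these genes. None of the 8 genes tested was called (called meaning over 2-fold in either direction with an adjusted p below 0.05), and neither was any other of the 14012 genes (0%), with 678 genes at an unadjusted p under 0.05. DESeq2 also called 0 genes, with 355 at that unadjusted p. Fos was highest in GSK343-treated cells at 8 h (30.0 and 22.5 CPM) and 72 h (23.9 and 21.7 CPM), above the WT-H3.3 libraries of the same times (8.55, 1.89, 16.0 and 11.5 CPM). The 22.5 CPM came from 29 counts in a library of 1247934 counts. At 8 h the coefficients of level with exonic length were 0.0204 and -0.0215 with GSK343. In WT-H3.3 they were -0.0219 and 0.161, the last in the library with 1.89 CPM, and the part of this in Fos was not tested. At 24 h, Fos was 7.48 and 5.11 CPM with GSK343 against 2.42 and 5.29 CPM in WT-H3.3 alone, and here the groups overlapped. The log2 fold change averaged over the 4 times was 1.17 ± 0.44 (SE) for Fos, 1.02 ± 0.50 for Egr1 and 0.96 ± 0.42 for Fosb, with an adjusted p of 0.973 each (edgeR quasi-likelihood test). All 8 estimates were positive, with a median of 0.37 against -0.01 over all genes tested, and the 2 on chromosome 8 were positive when it was kept. Ptgs2 gave 0.37 ± 0.22 (adjusted p = 0.973), Ier3 0.25 ± 0.31 (adjusted p = 0.978) and Dusp6 0.19 ± 0.24 (adjusted p = 0.982). These libraries were set against the same WT-H3.3 libraries as the mutant lines. Without a filter on low counts, Fos alone among the members was called, at a log2 fold change of 1.12 and an adjusted p of 7.29e-06. The share of all genes called in that fit is not given here, so this call was not set against it.

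**Figure D2:**
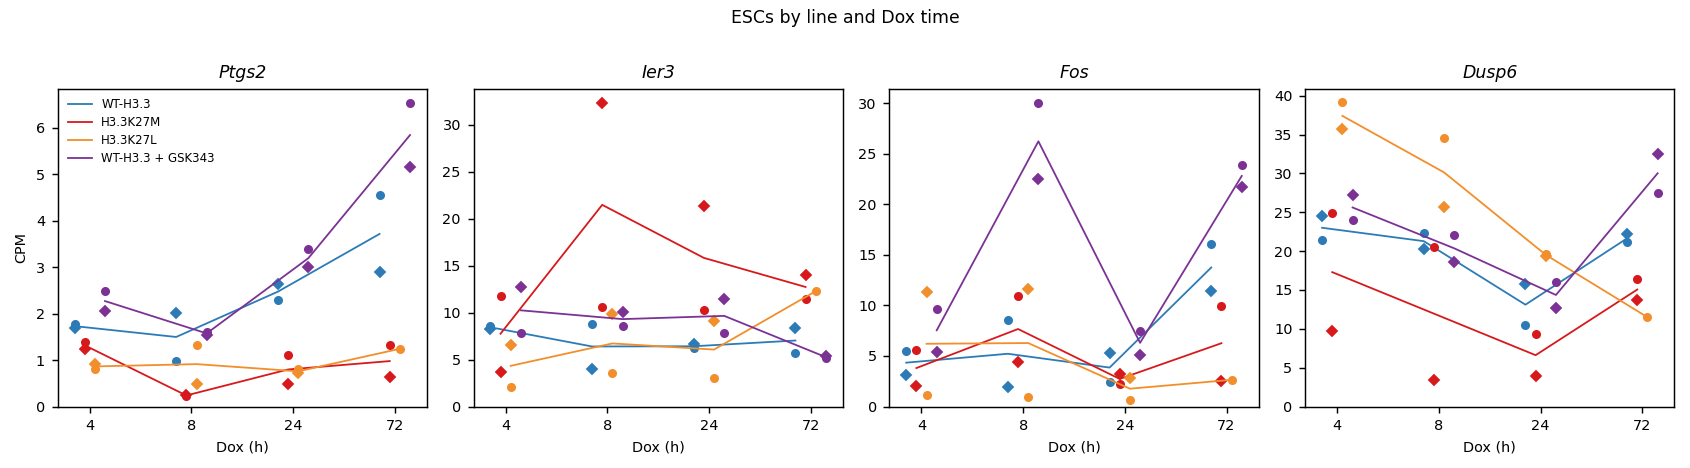
Ptgs2, Ier3, Fos and Dusp6 in ESCs by hours of Dox, in CPM; circles are replicate 1, diamonds replicate 2, lines join the means, colours are the 4 groups and the library with 68378 counts is not drawn. Ptgs2 of both mutant lines lies below WT-H3.3 at 24 and 72 h, Fos is highest with GSK343 at 8 and 72 h, and 2 H3.3K27M replicate 2 libraries hold 32.3 and 21.3 CPM of Ier3.

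Dox time moved few members in ESCs. At 8 h against 4 h, none of the 8 was called and 0% of all genes were, although Ptgs2 (-0.74 ± 0.26, SE) and Fosb (1.21 ± 0.44) had unadjusted p-values of 0.0104 and 0.0107 (adjusted p = 0.9999 each, edgeR). DESeq2 called 0 genes as well, and 479 genes in edgeR and 240 in DESeq2 were at an unadjusted p under 0.05. At 24 h against 4 h, 0 of 8 were called (0.457% of all genes). Dusp6 was at -0.99 ± 0.24 on the log2 scale (adjusted p = 0.0375) and just inside the fold limit, with 3.93 to 19.6 CPM in the 8 libraries at 24 h against 9.74 to 39.1 CPM at 4 h, so the times overlapped. Egr1 was at 0.895 to 4.81 CPM at 24 h and at 0.970 to 16.5 CPM at 4 h, a log2 fold change of -1.83 ± 0.56 (adjusted p = 0.0851). Within each line, same-numbered replicates deviated together at 4, 8 and 24 h. With the replicate number as a block within each line over the libraries of these times, a model chosen after seeing the data, 1 of 8 members was called at 24 h (1.52% of all genes, and 0.592% lower). This was Egr1 (-1.75 ± 0.41, adjusted p = 0.00293), while Dusp6 stayed inside the fold limit (-0.98 ± 0.11, adjusted p = 2.80e-06). At 8 h this model called 0 of 8 members and 5 of all genes (0.0361%), with 2008 genes at an unadjusted p under 0.05. In the model of all 32 libraries, without H3.3K27M replicate 2 at 4 h, the log2 fold change was -1.10 for Dusp6 and -1.99 for Egr1. Without H3.3K27M replicate 1 at 24 h, that of Dusp6 was -1.19. Among 33 other immediate early genes tested, Atf3, a stress-induced transcription factor, alone was called at 24 h, higher by 1.26 ± 0.26 (adjusted p = 0.0180).

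At 72 h against 4 h, Fosb was higher (log2 fold change 1.51 ± 0.48, SE, adjusted p = 0.0249), which made 1 of 8 members called (4.04% of all genes, and 2.68% higher). Fosb lay between 0.159 and 5.42 CPM in 7 libraries at 72 h (1 to 48 counts) and between 0.155 and 1.13 CPM in 8 libraries at 4 h (1 to 7 counts), so the times overlapped and the counts were low. The call was lost when any of 6 single libraries was left out: WT-H3.3 replicate 1 at 72 h, H3.3K27M replicate 1 at 72 h, H3.3K27L replicate 2 at 4 h or replicate 1 at 72 h, or GSK343 replicate 2 at 4 h or replicate 1 at 72 h. The coefficient of level with exonic length moved with these times. It was 0.127 to 0.166 in the 7 libraries at 72 h and -0.0498 to 0.0603 in 6 of the 8 libraries at 4 h. It was 0.15 and 0.152 in the remaining ones, H3.3K27M replicate 2 and H3.3K27L replicate 1, where Fosb was 0.155 and 1.13 CPM. The part of this in the call of Fosb was not tested. Ptgs2 was at 0.64 ± 0.26 (adjusted p = 0.0711). With chromosome 8 kept, Ier2 was at -0.69 ± 0.18 (adjusted p = 0.00817), which did not reach the fold limit, from 100.04 to 217 CPM at 4 h to 83.2 to 135 CPM at 72 h.

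In RA-treated cells Ier3 was 5.39, 6.43 and 7.43 CPM at 24 h (given here as WT-H3.3, then H3.3K27M, then H3.3K27L) and 35.8, 33.0 and 68.2 CPM at 72 h. All 3 lines moved the same way without overlap, and the log2 fold change, with line as a term, was 3.003 ± 0.20 (SE, edgeR adjusted p = 6.55e-08). Dusp6 went from 103, 151 and 66.2 CPM at 24 h to 327, 203 and 111 CPM at 72 h. Within each line it was higher at 72 h, and the log2 fold change was 1.19 ± 0.20 (adjusted p = 0.000213), falling inside the fold limit without either WT-H3.3 library (0.80 and 0.86). Fosb was lower at 72 h (-1.46 ± 0.52, adjusted p = 0.0252), but the lines were not alike. WT-H3.3 went from 0.898 to 2.79 CPM (5 and 7 counts), H3.3K27M from 4.96 to 1.46 CPM and H3.3K27L from 27.6 to 4.83 CPM. DESeq2 did not call Fosb (adjusted p = 0.194), and edgeR did not without the H3.3K27M library at 24 h (-1.38) or without either H3.3K27L library (-0.25 and -0.28).

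Thus 3 of 8 members were called between the RA times, 2 higher and 1 lower, where 42.9% of all genes tested were called, 20% higher and 22.9% lower. With chromosome 8 kept, Ier2 was also called (42.8% of all genes, 20.1% higher), with 49.2, 113 and 90.1 CPM at 24 h and 121, 141 and 146 CPM at 72 h (1.01 ± 0.17, SE, adjusted p = 0.000248). Egr1 (0.77 ± 0.30, adjusted p = 0.0336) and Dusp1 (0.51 ± 0.16, adjusted p = 0.0135) passed the p threshold but not the fold limit. Ptgs2 was at 5.21, 7.73 and 0.990 CPM at 24 h and 1.59, 2.05 and 1.42 CPM at 72 h (-1.07 ± 0.49, adjusted p = 0.0695). Ptgs2 was called without either H3.3K27L library (-1.58 and -1.53), and Egr1 without either H3.3K27M library or the H3.3K27L library at 72 h (1.02 to 1.23). Akr1b3 differed by -3.80 ± 0.23 on the log2 scale (adjusted p = 3.31e-08) between the same libraries. The time of Dox cannot be told apart here from the differences between libraries given above. The paper does not say whether libraries at 24 and 72 h of Dox had equal time in RA, which cannot be told apart either. Of 34 other immediate early genes 7 were called higher and 9 lower, Nfkbia being the gene of lowest adjusted p among the higher ones (2.47 ± 0.16, adjusted p = 5.55e-08) and Myc among the lower ones (-1.92 ± 0.18, adjusted p = 1.24e-06). Of 18 ERK feedback and output genes 2 were higher, led by Phlda1 (2.89 ± 0.17, adjusted p = 1.88e-08), and 5 lower, led by the ERK inhibitor Spred2 (-2.10 ± 0.19, adjusted p = 9.58e-07).

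With the 24 and 72 h libraries of RA-treated cells pooled as replicates of a line, none of the 8 members was called in H3.3K27M (0% of all genes, 14 at an unadjusted p under 0.05) or in H3.3K27L (0%, 185 at that p). DESeq2 called 0 and 5 genes, with 16 and 204 at that unadjusted p. When Dox time was a term of the model, the common dispersion fell from 0.457 to 0.0177, and 3 of 8 members were called in H3.3K27L, 2 higher and 1 lower (3.64% of all genes, 1.5% higher and 2.13% lower) and none in H3.3K27M (0.0163%). In H3.3K27L, Fosb was 27.6 and 4.83 CPM at 24 and 72 h against 0.898 and 2.79 CPM in WT-H3.3 (3.44 ± 0.66, SE, adjusted p = 0.0114). Fos was 36.1 and 14.2 CPM against 2.51 and 10.7 CPM (2.17 ± 0.55, adjusted p = 0.0351), and Dusp6 was 66.2 and 111 CPM against 103 and 327 CPM (-1.17 ± 0.25, adjusted p = 0.0175). Fosb and Fos were thus higher, and Dusp6 lower, than in WT-H3.3 at the same time in both pairs. In H3.3K27M, Fos was 19.8 and 14.03 CPM (1.56 ± 0.56, adjusted p = 0.633). With this model and chromosome 8 kept (3.5% of all genes called, 1.57% higher and 1.92% lower), Junb in H3.3K27L was at 0.86 ± 0.24 (adjusted p = 0.0515). The WT-H3.3 library at 24 h held 5050115 counts and 14 counts of Fos, so its low level had few reads behind it. Fosb had fewer still, with 5 and 7 counts in the WT-H3.3 libraries and 17 to 223 counts in those of H3.3K27L.

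Markers of other cell types moved with the H3.3K27L line of RA-treated cells. The sum of 8 extraembryonic endoderm markers was 11505 and 7879 CPM in H3.3K27L at 24 and 72 h, against 5137 and 3700 CPM in WT-H3.3 and 2032 and 2437 CPM in H3.3K27M. Sparc and Lama1 held most of these sums. Sparc was 5200 and 5833 CPM in H3.3K27L against 1992 and 2974 CPM in WT-H3.3, and Lama1 was 4775 and 401 CPM against 2409 and 179 CPM. With Dox time in the model, 7 of the 8 were called higher in H3.3K27L, and in H3.3K27M 0 were. Gata4, a transcription factor of this lineage, was 499 and 133 CPM in H3.3K27L against 175 and 39.0 CPM in WT-H3.3, and none of the 8 was at 0 counts in any RA library. The sum of 7 ESC markers was 255 and 215 CPM in H3.3K27L against 109 and 72.0 CPM in WT-H3.3, with 2 of 4 tested called higher. Klf4 alone held 191 and 183 CPM of these sums in H3.3K27L, and 77.6 and 56.5 CPM in WT-H3.3. At 72 h, Pou5f1 was at 0 counts in WT-H3.3 and H3.3K27M and at 1 count in H3.3K27L. The sum of 8 OPC markers was 314 and 166 CPM against 161 and 65.7 CPM, with the 1 tested called higher. Pdgfra alone held 309 and 162 CPM of these sums in H3.3K27L and 156 and 63.3 CPM in WT-H3.3, so they say little of the other OPC markers. Olig2 was at no more than 6 counts in any RA library. Neural progenitor markers summed to 146 and 62.2 CPM against 269 and 100.7 CPM, with 2 of 4 tested called lower. Among the fibroblast, macrophage, endothelial and astrocyte markers tested, 0 were called in H3.3K27L. The part of these differences in the levels of Fosb, Fos and Dusp6 in H3.3K27L was not tested.

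In OPC cultures the lines differed in most members. Of the 8 tested, 5 were called lower in H3.3K27M and none higher, where 15% of all genes tested were called lower and 27.9% in either direction. With chromosome 8 kept, 7 of 10 were lower, and again 15% of all genes (27.8% in either direction). The members' median log2 fold change was -2.26, against 0.00 over all genes tested.

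Ptgs2 was 26.7 and 41.5 CPM in the WT-H3.3 libraries at 24 and 72 h (314 and 422 counts) and 0.838 and 0.000 CPM in the H3.3K27M libraries (6 and 0 counts). The fitted log2 fold change was -6.37 ± 0.53 (SE, adjusted p = 3.69e-06, edgeR). Since 1 library had no count, its size depends on that library, and it ran from -11.4 without the H3.3K27M library at 24 h to -5.34 without that at 72 h.

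The AP-1 genes and Egr1 were lower as well. Junb was 366 and 223 CPM in WT-H3.3 and 21.6 and 10.04 CPM in H3.3K27M (-4.23 ± 0.32, adjusted p = 2.01e-06, chromosome 8 kept). Fos was 67.0 and 68.1 CPM against 8.80 and 11.3 CPM (-2.76 ± 0.18, SE, adjusted p = 7.12e-07). Fosb was 3.57 and 2.36 CPM against 0.838 and 0.913 CPM (-1.77 ± 0.46, adjusted p = 0.00784), from 42 and 24 counts against 6 and 7, a call that was lost without the WT-H3.3 library at 24 h (-1.46). Egr1 was 825 and 1084 CPM against 134 and 99.4 CPM (-3.05 ± 0.20, adjusted p = 6.73e-07), and Maff was 75.0 and 95.5 CPM against 7.96 and 9.52 CPM (-3.30 ± 0.20, adjusted p = 4.50e-07). For none of these genes did the lines overlap.

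The phosphatases and Ier genes moved less. Ier2 was 79.4 and 85.3 CPM against 41.2 and 40.6 CPM (-1.03 ± 0.14, SE, adjusted p = 0.000149, chromosome 8 kept). Dusp1 was 68.1 and 61.2 CPM against 29.3 and 37.7 CPM, a log2 fold change of -0.96 ± 0.16 (adjusted p = 0.000523) that stayed inside the fold limit, but passed it without either 72 h library (-1.02 and -1.15). Ier3 was 94.7 and 111 CPM against 76.4 and 81.1 CPM (-0.40 ± 0.14, adjusted p = 0.0340), also inside it. Dusp6 was 1283 and 1337 CPM against 1356 and 1686 CPM (0.20 ± 0.15, adjusted p = 0.286), so its lines did not differ beyond the error of the fit while Fos and Egr1 did. With 1 library per line and time, the 2 times served as replicates of a line.

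**Figure D3:**
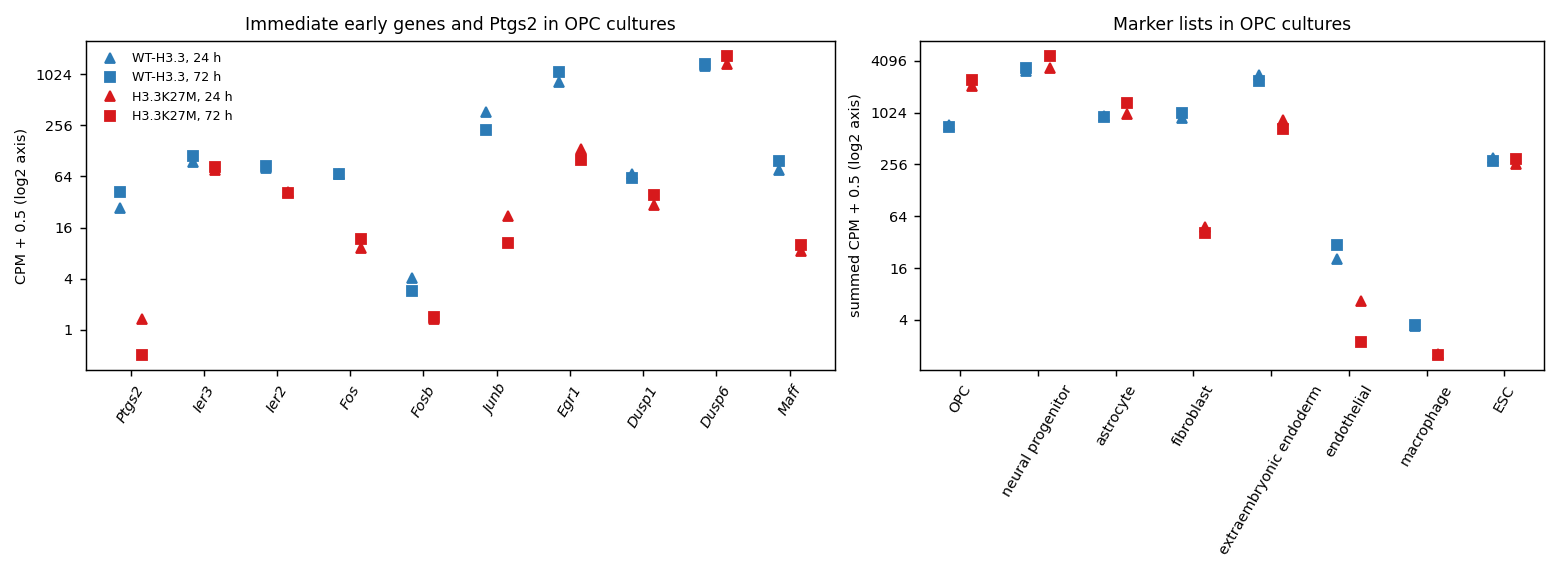
OPC cultures of WT-H3.3 (blue) and H3.3K27M (red) at 24 h (triangles) and 72 h (squares) of Dox; the left panel gives each gene in CPM plus 0.5 and the right panel the summed CPM plus 0.5 of each marker list, both on log2 axes. Junb falls from 366 and 223 CPM to 21.6 and 10.04 CPM while Dusp6 stays between 1283 and 1686 CPM, and the fibroblast sum goes from 887 and 1016 CPM to 47.5 and 40.7 CPM.

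Other genes of the same pathways were taken from lists. Of 37 other immediate early genes tested, 21 were lower and 0 higher in H3.3K27M OPC cultures, with a median log2 fold change of -1.21, and Cyr61, a matricellular gene, had the lowest adjusted p (340 and 437 CPM against 19.1 and 17.5 CPM, -4.43 ± 0.18, SE, adjusted p = 4.50e-08). Over all genes tested, 12.9% were called higher and 15% lower. Of the 19 ERK feedback and output genes 4 were higher and 6 lower, with a median of -0.04. Etv5, an ETS factor downstream of FGF signalling, was higher (248 and 277 CPM against 1026 and 1059 CPM, 1.97 ± 0.14, adjusted p = 1.05e-06), and Dusp5, a nuclear ERK phosphatase, was lower (41.2 and 35.9 CPM against 2.51 and 3.13 CPM, -3.78 ± 0.23, adjusted p = 4.37e-07). Of 13 prostaglandin genes 2 were higher and 6 lower (median -0.44). Ptges, the inducible prostaglandin E synthase that acts on the product of Ptgs2, was 14.5 and 23.1 CPM against 0.140 and 0.261 CPM (-6.47 ± 0.51, adjusted p = 2.55e-06). Ptgds, a prostaglandin D synthase of glia and meninges, was higher (3.14 and 2.56 CPM against 25.8 and 30.3 CPM, 3.27 ± 0.23, adjusted p = 1.23e-06).

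Markers of other cell types moved with the same lines. The summed level of 10 fibroblast markers was 887 and 1016 CPM in WT-H3.3 OPC cultures and 47.5 and 40.7 CPM in H3.3K27M, and of 9 tested 7 were lower and 2 higher. Col1a1 was 156 and 160 CPM against 4.33 and 2.35 CPM. The sum of 8 extraembryonic endoderm markers was 2786 and 2361 CPM against 845 and 652 CPM, with 7 of 7 tested lower, and Gata4 was 6.97 and 8.46 CPM against 0.419 and 0.261 CPM. Sparc alone held 2642 and 2178 CPM of these sums in WT-H3.3 and 818 and 629 CPM in H3.3K27M. Endothelial markers summed to 19.7 and 29.5 CPM against 6.14 and 1.69 CPM, with 1 of 3 tested lower. Macrophage markers summed to at most 2.95 CPM, with Cx3cr1, Ptprc and Tyrobp at 0 counts in all 4 libraries. The sum of 8 OPC markers was 730 and 701 CPM against 2093 and 2435 CPM, with Olig2 at 322 and 264 CPM against 967 and 1003 CPM. Pdgfra, a defining surface marker of OPCs, was 15.1 and 22.3 CPM against 0.559 and 0.782 CPM, and Sox10 was 1.87 and 3.25 CPM against 0.140 and 0.522 CPM, so both were near 0 in the H3.3K27M cultures. Astrocyte markers summed to 929 and 909 CPM against 999.9 and 1328 CPM, with 3 of 6 called lower and 0 higher. Slc1a3 alone held 724 and 729 CPM of these sums in WT-H3.3 and 849 and 1162 CPM in H3.3K27M. Gfap was 32.6 and 22.9 CPM against 0.279 and 0.000 CPM, and Aqp4 was 32.8 and 27.2 CPM against 6.56 and 7.17 CPM. Aldh1l1 was 6.46 and 6.99 CPM against 1.54 and 2.35 CPM, while the fold changes of the other 3 were positive. The sum of 7 neural progenitor markers was 3110 and 3413 CPM against 3413 and 4703 CPM, with 3 higher and 1 lower of 6 tested, and Sox3 was 47.8 and 46.9 CPM against 367 and 394 CPM. Fabp7 alone held 2815 and 3111 CPM of these sums in WT-H3.3 and 2720 and 3992 CPM in H3.3K27M. The sum of 7 ESC markers was 307 and 279 CPM against 262 and 294 CPM, with 1 higher and 1 lower of 3 tested and Pou5f1 at 0 counts in all 4 libraries. Sox2 held 202.7 and 184.5 CPM of these sums in WT-H3.3 and 240.3 and 271.7 CPM in H3.3K27M. Klf4 held 102.5 and 92.91 CPM against 5.585 and 7.304 CPM. The part of these differences in cell types in the lower level of Ptgs2, Junb, Fos, Egr1 and Maff was not tested. In bulk libraries, fewer cells of a type and less RNA per cell cannot be told apart.

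The cell states were set side by side in 1 model of 22 libraries with line as a term, ESCs at 24 and 72 h among them. These ESC libraries are among those by which Ptgs2 and Ier3 were selected. At 24 h, 6 of 8 members were higher in RA-treated cells than in ESCs and none lower, where 23.6% of all genes were called higher and 42.1% in either direction. Egr1 was at 21.4 to 89.7 CPM in the 3 RA libraries at 24 h, above the 0.895 to 4.69 CPM of the 6 ESC libraries in the model at that time (5.42 ± 0.60, SE, adjusted p = 1.11e-07). The others were Fosb (4.39 ± 0.64, adjusted p = 4.88e-06), Fos (3.04 ± 0.66, adjusted p = 0.000460), Dusp6 (3.02 ± 0.36, adjusted p = 4.18e-07), Ptgs2 (2.28 ± 0.79, adjusted p = 0.0173) and Maff (1.59 ± 0.53, adjusted p = 0.0126). Ier3 (-0.55 ± 0.40) and Dusp1 (-0.30 ± 0.25) did not pass. Without the H3.3K27M RA library at 24 h, Ptgs2 (0.50) and Maff (0.88) were no longer called.

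At 72 h, 4 of 8 were higher in RA-treated cells (26.5% of all genes, and 56.9% in either direction). Dusp6 was at 3.69 ± 0.38 (SE, adjusted p = 2.08e-08), Egr1 at 2.997 ± 0.56 (adjusted p = 7.06e-05), Ier3 at 2.23 ± 0.38 (adjusted p = 2.54e-05) and Maff at 1.44 ± 0.58 (adjusted p = 0.0315), which was lost without either WT-H3.3 ESC library or any of the 3 RA libraries of that time (1.25 to 1.52). Ptgs2 (0.21 ± 1.08), Fos (0.84 ± 0.71) and Fosb (0.84 ± 0.73) did not pass. In the other lists, the count at 24 h was 23 higher and 2 lower of 37 other immediate early genes, led by Jun (4.36 ± 0.18, adjusted p = 6.00e-14) and Sgk1 (-4.06 ± 0.50, adjusted p = 4.78e-07). At 72 h it was 17 higher and 6 lower of 37. The medium, the culture and the library measures given above changed with the state, so they cannot be told apart.

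**Figure D4:**
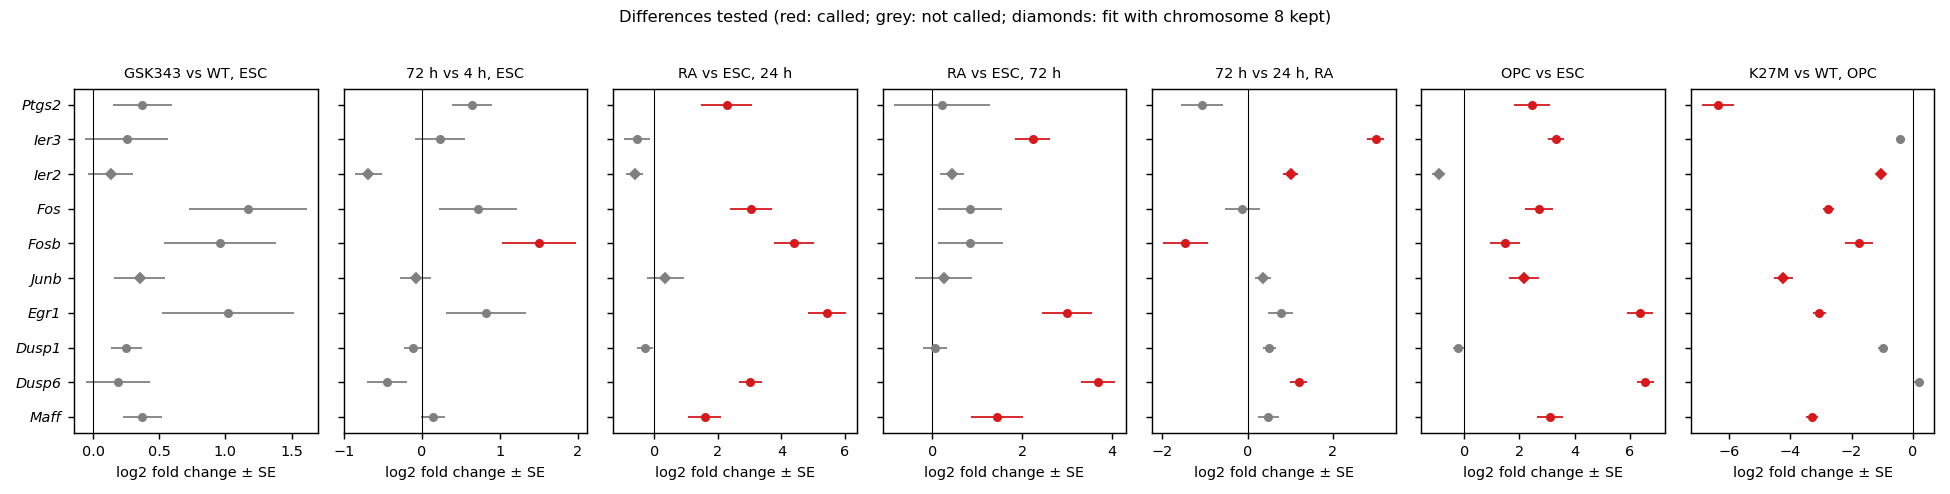
Log2 fold change with its SE of each gene in 7 tested comparisons, each panel with its own axis; red points were called and grey ones not, and diamonds mark Ier2 and Junb from the fit with chromosome 8 kept. In H3.3K27M against WT-H3.3 OPC cultures the red points lie between -6.37 and -1.03, while against ESCs the OPC cultures show Dusp6 at 6.56 and Egr1 at 6.38.

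OPC cultures had the highest levels of Dusp6, Egr1 and Ier3. Dusp6 was at 1283 to 1686 CPM in the 4 OPC libraries, 66.2 to 327 CPM in the 6 RA libraries and 3.38 to 39.1 CPM in the 31 ESC libraries, and these 3 ranges did not overlap. Egr1 was at 99.4 to 1084 CPM in OPC cultures, 21.4 to 90.03 CPM in RA-treated cells and 0.881 to 34.9 CPM in ESCs, where the last 2 ranges overlapped. For Ier3 the order was the same, with 76.4 to 111 CPM in OPC cultures, above the 5.39 to 68.2 CPM of RA-treated cells, which overlapped the ESC range of 2.10 to 32.3 CPM. Dusp1 lay at 29.3 to 68.1 CPM in OPC cultures, 37.7 to 57.7 CPM in RA-treated cells and 40.2 to 77.4 CPM in ESCs, so that its 3 ranges overlapped. Maff was 75.0 and 95.5 CPM in WT-H3.3 OPC cultures, above all other libraries, while the 7.96 and 9.52 CPM of H3.3K27M lay near the lower end of RA-treated cells (8.26 to 18.7 CPM).

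Against ESCs, 7 of 8 members were called higher in OPC cultures and none lower, where 31.3% of all genes were called higher and 67.1% in either direction. The ESC libraries here are among those by which Ptgs2 and Ier3 were selected, so the p-values of both carry that choice. This model joins the lines. Within each line, as given below, Ptgs2 moved in opposite directions and Maff was not called in H3.3K27M. The log2 fold change was 6.56 ± 0.32 (SE, adjusted p = 2.64e-14) for Dusp6, 6.38 ± 0.46 (adjusted p = 2.92e-11) for Egr1 and 3.34 ± 0.29 (adjusted p = 5.59e-10) for Ier3. It was 3.11 ± 0.47 for Maff, 2.71 ± 0.52 for Fos, 2.46 ± 0.65 for Ptgs2 and 1.47 ± 0.55 for Fosb (adjusted p between 3.20e-06 and 0.0178). Ptgs2 was not called without the WT-H3.3 OPC library at 24 h (1.26) and turned to -1.91 without that at 72 h, and the call of Fosb was lost without either. Dusp1 was at -0.22 ± 0.21 (adjusted p = 0.354), and at 0.14 after RLE normalization, so its direction turned with the scaling. RLE normalization moved the median of all genes from -0.13 to 0.23 in this comparison, from -0.15 to 0.25 for RA-treated cells at 72 h and from 0.03 to 0.13 at 24 h. The split of calls at 72 h went from 4197 higher and 4809 lower to 5169 higher and 3801 lower, and the number of members called remained 7, 4 and 6.

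Since the OPC lines differed, the comparison with ESCs was also made within each line, an alternative added after the data were seen (69% of all genes called in WT-H3.3 and 66.6% in H3.3K27M, with 31.1% and 29.2% of all genes higher). In WT-H3.3, Ptgs2 was higher in OPC cultures than in ESCs (3.45 ± 0.22, SE, adjusted p = 1.02e-10), as were Junb (3.46 ± 0.17, adjusted p = 9.18e-13, chromosome 8 kept), Maff (4.41 ± 0.20, adjusted p = 1.02e-12) and Fos (3.22 ± 0.23, adjusted p = 3.78e-10). In H3.3K27M, Ptgs2 was lower in OPC cultures (-2.94 ± 1.34, adjusted p = 0.0477), a call that was lost with chromosome 8 kept (-2.86, adjusted p = 0.0598), and Junb was at -0.84 ± 0.29 (adjusted p = 0.0104, chromosome 8 kept) and Maff at 0.69 ± 0.35 (adjusted p = 0.0698). Dusp6 (6.29 ± 0.21 and 7.23 ± 0.29), Egr1 (6.92 ± 0.29 and 5.11 ± 0.30), Ier3 (3.95 ± 0.20 and 2.46 ± 0.26) and Fos (1.26 ± 0.41 in H3.3K27M, adjusted p = 0.00647) were higher in both lines. The difference between the lines' changes from ESCs was not tested. The ESC libraries of these fits are among those by which Ptgs2 and Ier3 were selected, so the p-values of both carry that choice.

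The change from ESCs to RA-treated cells itself differed between 24 and 72 h for 3 of 8 members, 1 in the higher and 2 in the lower direction, where 37.1% of all genes tested were called (13.6% higher and 23.4% lower). The contrast, 72 h minus 24 h, was 2.78 ± 0.56 (SE) for Ier3 (adjusted p = 0.000354), and was negative for Fosb (-3.55 ± 0.95, adjusted p = 0.00435) and for Egr1 (-2.43 ± 0.83, adjusted p = 0.0215). Ier2, with chromosome 8 kept, was at 1.05 ± 0.37 (adjusted p = 0.0245). DESeq2 did not call Egr1 (-2.12, adjusted p = 0.0560), nor did edgeR without the WT-H3.3 RA library at 72 h (-2.07), the H3.3K27M library at 24 h (-1.61) or the H3.3K27L library at 24 h (-2.25). Without the last of these Fosb was not called either (-2.24), which left 1 of 8 members. RLE normalization moved the median of all genes from -0.33 to -0.04 here and the split of calls from 2159 higher and 3710 lower to 2834 and 2830. The RA libraries at 24 and 72 h differed in their coefficients with exonic length and in Akr1b3, as given above. This contrast cannot be told apart from those differences. Its ESC libraries are among those by which Ptgs2 and Ier3 were selected.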

How the data were processed

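Gene expression was measured by RNA-seq in 42 of the 155 samples of the series, and the 113 samples of other assays were not analysed here. Reads had been aligned by the authors with STAR 2.7.1 on the mm9 build, and the deposited values were unnormalized counts for each gene, in one table per cell state. The counter was not given in the sources used here. Of 55471 genes, 32589 (98.2% of counts) were matched to the NCBIM37 annotation. Columns of the OPC libraries at 72 h carry another replicate number than the labels, and were placed by line and time.

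The members and gene lists were chosen with earlier results of these data known, and 1 list of regulators is not reported here. Counts were tested with edgeR 4.0.16 (TMM, filterByExpr, quasi-likelihood F test) in R 4.3.3, with p-values adjusted by the Benjamini-Hochberg method over all genes of a comparison. Calls needed an adjusted p below 0.05 and more than a 2-fold difference. Chromosome 8 was left out, except for Ier2 and Junb. The ESC model had one coefficient per group and time, as replicates of which the 2 libraries served, models of RA-treated cells and OPC cultures one per line (RA times with line as a term), and the model of cell states had line as a term. CPM were computed over all 42 libraries with TMM factors. All members were named, and of each gene list the called gene of lowest adjusted p in each direction could be named. Among RA lists only some of these are given, and markers were named after their values were seen. No 2 libraries were copies (chi-square of at least 1.85 per gene). The test was tried on simulated counts. Within each line, the differences between replicates correlated over 9665 genes between 4 and 8 h (0.507 to 0.89) and between 4 and 24 h (0.423 to 0.818), which pairs same-numbered libraries of a line at these times. Alternatives changed the tool (DESeq2 1.42.0), normalization, filter, libraries in the model, replicate block, fold threshold and chromosome 8, and left out each library in turn. Tables and figures were made in Python 3.11.15 (SciPy 1.17.1 for rank coefficients, pandas 2.3.3 for joins, Matplotlib 3.10.9 for plots, with NumPy 2.4.6). Errors are SE of the fit, and depth limits low genes such as Fosb and Ptgs2 in ESCs.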

Additional observations from a re-analysis of the deposited data

Results flagged for a closer look

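A library stood far from the other 7 of its line (Dixon's 95% critical ratio of 0.526 for 8 libraries, on log2(CPM + 0.5)) in 5 of the 40 gene and line pairs of ESCs, where chance flags about 1 in 20. All 5 are replicate 2 of H3.3K27L at 72 h, the library with 68378 counts. It gave 0.0 CPM (0 counts) of Junb, Dusp1, Dusp6 and Maff, against 17.9 to 42.6, 40.2 to 61.9, 11.5 to 39.1 and 3.40 to 8.39 CPM in the other 7. Ier2 was 27.6 CPM there, from 2 counts, against 107 to 176 CPM.

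The change from ESCs to RA-treated cells differed between 72 and 24 h by an interaction contrast for Fosb (-3.55 on the log2 scale, adjusted p = 0.00435, edgeR), Ier3 (2.78, adjusted p = 0.000354), Egr1 (-2.43, adjusted p = 0.0215) and, with chromosome 8 kept, Ier2 (1.05, adjusted p = 0.0245). The 3 RA libraries at 24 h had a Spearman coefficient of level with exonic length of 0.228 to 0.292 and the 3 at 72 h of 0.0144 to 0.0306. The contrasts cannot be told apart from that difference between libraries.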

How the results depend on the processing

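The number of members called stayed the same or within 1.5 times under the alternatives run except as follows. Without a filter on low counts, 1 member was called with GSK343, 1 at 24 h against 4 h and 5 in the contrast of RA changes between times. With the adjusted p alone, 1 was called at 24 h against 4 h and 5 at 72 h against 24 h of RA-treated cells. With Dox time in the model, 3 were called in H3.3K27L RA-treated cells, with and without chromosome 8. Shares of all genes called in fits without the filter, with the adjusted p alone or with 1 library left out are not given here. Values kept direction and side of the threshold in 641 recomputations with another setting, against 19 with the direction turned, 17 newly past the threshold and 4 no longer past it. With 1 library left out, they did in 1014 recomputations, against 52, 12 and 25. The cause was not tested for those that did not.

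Directions turned (log2 fold changes) for Fos between RA times with DESeq2 (0.18), and for Ier3 (0.016, and 0.022 with chromosome 8) in H3.3K27M RA-treated cells with Dox time in the model. They turned for Dusp1 in H3.3K27M with RLE normalization (-0.00096) and in H3.3K27L with Dox time (0.0082, and 0.034 with chromosome 8), and for Maff in H3.3K27L without the filter (0.013), with chromosome 8 (0.0059) and with Dox time (0.073 and 0.099). Against ESCs they turned for Dusp1 of RA-treated cells at 72 h without the filter (-0.047), for Dusp1 of OPC cultures with RLE (0.14), DESeq2 (0.14) or WT-H3.3 alone (0.16, and 0.17 with chromosome 8), and for Ptgs2 of OPC cultures in H3.3K27M alone (-2.94 and -2.86). For Maff in the RA contrast between times they turned with RLE (0.16) and DESeq2 (0.19).

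Leaving out 1 library at a time gave 0 to 2 members at 24 h against 4 h, 0 to 1 at 72 h against 4 h and 1 to 4 in the RA contrast between times. Ptgs2 of H3.3K27L ESCs ran from -2.84 to -1.08 and Ier3 from -2.47 to 0.11. In ESC times, Egr1 at 8 h ran from -0.27 to 1.16, Ptgs2, Fosb and Maff at 24 h from -0.16 to 0.15, -0.51 to 0.13 and -0.058 to 0.070, and Ptgs2, Ier3, Fosb and Maff at 72 h from -0.97 to 0.75, -2.20 to 0.49, -0.064 to 1.86 and -2.15 to 0.20, the lowest at 72 h all without H3.3K27L replicate 1, which left the shallowest library alone. Fos between RA times ran from -0.70 to 0.61. In H3.3K27M RA-treated cells Ptgs2 ran from -0.64 to 1.38, Ier3 from -1.996 to 2.03, Fosb from -0.25 to 1.85, Egr1 from -0.16 to 2.01, Dusp1 from -0.36 to 0.52, Dusp6 from -1.06 to 0.88 and Maff from -0.039 to 1.09. In H3.3K27L, Ier3 ran from -1.71 to 2.996, Egr1 from -0.078 to 2.09, Dusp1 from -0.41 to 0.47 and Maff from -0.49 to 0.65. Against ESCs, Ptgs2 and Dusp1 of RA-treated cells at 72 h ran from -0.39 to 1.11 and -0.032 to 0.20, Ptgs2 and Dusp1 of OPC cultures from -1.91 to 3.08 and -0.56 to 0.013, and Maff in the RA contrast from -0.50 to 0.55.

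Differences between replicates correlated between WT-H3.3 and H3.3K27M at each time (0.572 to 0.684). Between WT-H3.3 and H3.3K27L the coefficient was -0.548, -0.679 and -0.617 at 4, 8 and 24 h and 0.239 at 72 h. With GSK343 it ran from -0.389 to 0.586, and within lines, between 4 and 72 h, from -0.0716 to 0.387. Numbers thus paired H3.3K27M with WT-H3.3, and 4, 8 and 24 h within a line, but not all groups. At 4, 8 and 24 h the replicates of H3.3K27L differed in the opposite direction to those of WT-H3.3, so a block common to all lines joined opposite deviations. A block within each line over these 3 times gave 0 members at 8 h and 1 (Egr1) at 24 h. A replicate block common to all lines gave -1.64 for Ptgs2 and 0.94 for Ier3 in H3.3K27M ESCs, and left the members called at 0 with GSK343, 0 at 8 h, 0 at 24 h and 1 at 72 h in ESCs and, with Dox time as the block, 5 in OPC cultures. Depth limits Ptgs2 and Fosb in ESCs, at 0 to 70 and 0 to 48 counts.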
